A study of Mus musculus with 18 samples.

Results

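The first 10 min after ligation of a coronary artery were examined by setting 3 mice killed at that time beside 3 sham-operated mice, across every gene counted in heart tissue. These 6 samples, taken by their labels, are part of a time course of 18 mice, all 12-week-old males of the strain given as C57BL/6JR, in 6 groups of 3. In the 10 min group (MI 10 min) the left anterior descending coronary artery was tied under sodium pentobarbital. In the sham group, listed as 0 h, the animals had the same surgery with a suture passed but not tied. All of them were then put under isoflurane and killed. The remaining groups were killed 1, 6, 24 or 72 h after ligation, and the 1 h group is used below to follow genes onward. RNA came from the infarcted region of the left ventricle, and was sequenced after poly(A) selection. The labels also name cardiomyocytes as the cell type but describe no separation of cells. They give neither the time of day of each death nor the interval between sham surgery and death, so time of day or time since surgery and ligation cannot be told apart. Replicates are separate mice. The p-values set each difference against the spread between mice within groups, taken over all 18 mice unless stated otherwise.

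Immediate early genes such as Fos and Egr1 encode transcription factors whose transcription starts without new protein synthesis when kinases, calcium or stretch signal to the nucleus, and they are followed by inhibitors that switch the signal off. The circadian clock is a loop in which CLOCK and ARNTL (also called BMAL1) bind E-box sequences and activate the Per and Cry genes, whose proteins return to block them. Transcripts of Arntl and of Per, Dbp, Tef and Hlf peak in opposite parts of the day.

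Libraries held 21.3 to 23.5 M (mega) counts in sham and 18.2 to 25 M at 10 min. Mitochondrially encoded genes took 23.8% to 26.1% of counts in sham and 22.3% to 27.4% at 10 min, with the highest share in replicate 1 at 10 min. Correlations of log2 levels between the 6 libraries ran from 0.985 to 0.991. The lowest, 0.985, involved replicate 1 at 10 min, and the counts of calls without this mouse are given with the main counts. The summed cardiomyocyte markers (Myh6, Tnnt2, Tnni3, Actc1, Ryr2 and Myl2) reached 54020 to 58980 CPM in sham and 47900 to 57860 CPM at 10 min. CPM here are counts scaled to library size with TMM factors. Endothelial markers summed to 1215 to 1346 CPM in sham and 1327 to 1426 CPM at 10 min. Of these 6 markers 5 had a positive log2 fold change. The other, Emcn, was lower when the 6 libraries were fitted alone (log2 fold change -0.52, edgeR adjusted p = 0.00197). None of the defining cardiomyocyte or endothelial markers was at 0 counts in all 6 libraries. The tissue therefore held cardiomyocyte transcripts together with those of other cells. In such bulk tissue, fewer cells of a type and less RNA per cell cannot be told apart.

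After 10 min of ligation 12 genes had changed, 4 of them at least 2-fold. The 12 are 0.0736% of the 16311 genes tested, with 5 (0.0307%) higher and 7 (0.0429%) lower than in sham (edgeR quasi-likelihood test on all 18 libraries, adjusted p under 0.05). Genes higher at 10 min were Arntl, Slc41a3, Galnt18, Leo1 and Eln. Genes lower at 10 min were Per2, Lonrf1, Mid1ip1, Ptprn, Zfp445, Maco1 and Cipc. Of these, Arntl, Per2 and Cipc belong to the clock. The same test fitted to the 6 libraries alone, where the replicates' spread is estimated from sham and 10 min mice only, called 360 of 14510 genes (2.48%), of which 193 (1.33%) were higher and 167 (1.15%) lower at 10 min. The biological coefficient of variation was 0.149 over the 18 libraries and 0.0851 over the 6. Of the 12 genes, 10 were called by both fits; Slc41a3 and Lonrf1 were not called by the 6-library fit. In the 18-library fit 7.01% of genes had an unadjusted p under 0.05, 3.63% upward and 3.38% downward. Without regard to either fit, 20% of genes tested had all 3 libraries of one group beyond the other.

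The size of the log2 fold change over the 360 genes ran from 0.25 to 3.20 with a median of 0.47, and 43 of them changed at least 2-fold. In all 360 the groups did not overlap, so absence of overlap in a gene called by this fit is not separate support. The 12 calls fell to between 0 and 5 when any 1 of the 6 libraries was left out of the fit, and to 0 when that library was sham replicate 3 or the first mouse at 10 min. The 360 became between 124 (without sham replicate 1) and 700 (without the first mouse at 10 min). Below, a gene is said to have changed in the 18-library fit or in the 6-library fit, whichever called it. Scaling libraries by their totals instead of TMM gave 9 calls, 7 higher and 2 lower, of which 7 were among the 12.

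**Figure D1:**
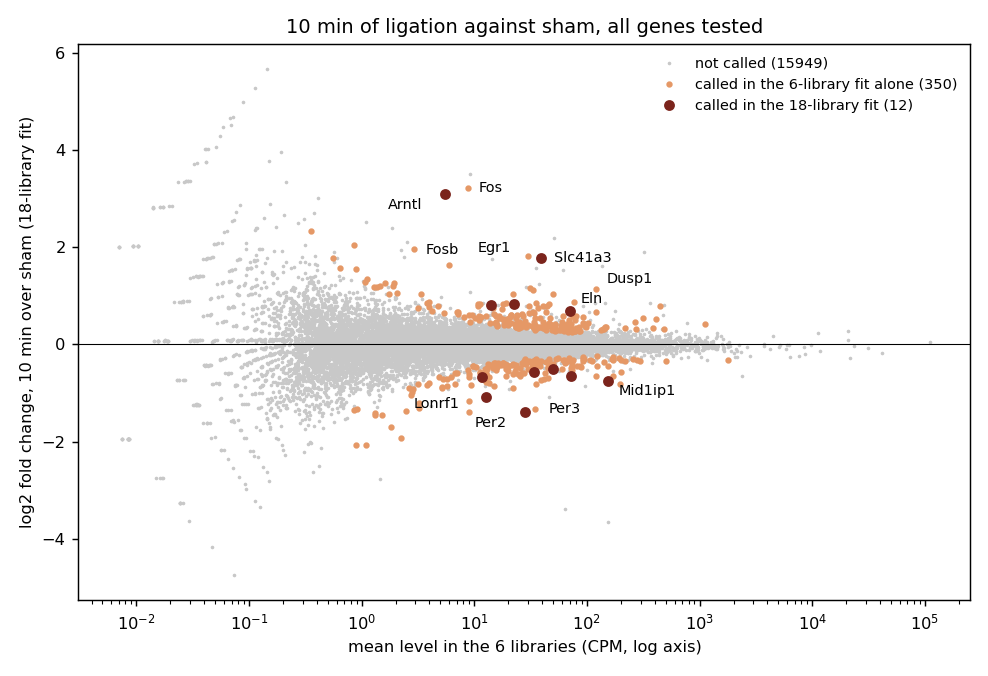
Each point is a gene tested, with its mean level over the 6 libraries in CPM (log axis) against its log2 fold change at 10 min over sham from the 18-library fit. Dark points are the 12 genes called by that fit, orange points the 350 called by the 6-library fit alone, and Fos and Arntl have the highest fold changes among the genes labelled in the plot.

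Of the clock activators, Arntl (ENSMUSG00000055116, chr7:113207465-113314126 in mm10) had the highest fold change of the 12. It stood at 1.42, 1.04 and 1.02 CPM in sham and at 13.1, 7.52 and 9.21 CPM at 10 min. Every 10 min mouse was several times above every sham mouse, with replicate 1 the highest. The log2 fold change was 3.09 (SE 0.41, edgeR adjusted p = 0.0124). Clock, its partner, stood at 26.0, 26.6 and 24.0 CPM in sham and at 44.7, 37.0 and 40.3 CPM at 10 min, again without overlap. Its log2 fold change of 0.67 was not called in the 18-library fit (SE 0.13, edgeR adjusted p = 0.067) and was called in the 6-library fit (SE 0.09, adjusted p = 0.000445). Npas2, which can take the place of Clock, had a log2 fold change of 0.94 and was called by neither fit. Over the 6 activators tested the median log2 fold change was 0.37, beside 0.01 over all genes tested.

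The repressors went the other way. Of the 11 tested, 9 had a negative log2 fold change, with a list median of -0.50. In the 6-library fit 7 were lower, namely Per1, Per2, Per3, Cry1, Cry2, Ciart and Cipc, beside 1.15% of all genes. In the 18-library fit, Per2 and Cipc were lower. Per2, a period protein gene (chr1:91415982-91459324), stood at 34.4, 44.3 and 44.4 CPM in sham and at 12.6, 20.9 and 13 CPM at 10 min. The groups did not overlap, and the log2 fold change was -1.40 (SE 0.24, edgeR adjusted p = 0.0442). Cipc, which encodes an inhibitor of CLOCK (chr12:86947043-86965362), went from 61.9, 56.7 and 56.1 CPM in sham to 41.7, 42.5 and 39.4 CPM at 10 min. Its fold change was modest, -0.50 on the log2 scale (SE 0.09, edgeR adjusted p = 0.0415), and its replicates lay close together.

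Per3 stood at 53.5, 48.5 and 48.2 CPM in sham and at 14.3, 20.5 and 24.5 CPM at 10 min. Ciart, whose protein represses CLOCK and ARNTL, went from 13.4, 10.6 and 13.3 CPM to 3.61, 7.48 and 5.31 CPM. Cry1 went from 14.4, 16.8 and 16.8 CPM to 8.84, 11.1 and 8.04 CPM. All 3 of these genes were lower in each 10 min mouse than in any sham mouse, and were called by the 6-library and not the 18-library fit. The log2 fold changes in the 6-library fit were -1.34, -1.16 and -0.77 (edgeR adjusted p = 0.0121, 0.0202 and 0.00293). Of the nuclear receptor repressors, Nr1d1 had a log2 fold change of 0.34 with overlapping groups, and Nr1d2 one of -0.22 with every 10 min mouse below every sham mouse. Neither fit called them.

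The clock output genes Dbp, Tef, Hlf, Wee1, Usp2 and Nampt all had negative log2 fold changes, with a median of -0.77, and in all 6 the groups did not overlap, beside 9.07% of all genes lower without overlap. Tef, Hlf and Wee1 were lower in the 6-library fit, beside 1.15% of all genes, and none was called in the 18-library fit. Tef, a bZIP transcription factor gene, stood at 250, 265 and 245 CPM in sham and at 108, 167 and 153 CPM at 10 min. Hlf, of the same family, stood at 53.1, 51.7 and 51.0 CPM and at 26.3, 33.8 and 34.6 CPM. Dbp, the third bZIP gene, went from 128, 128 and 119 CPM to 45.6, 80.0 and 80.0 CPM, and was called by neither fit. In Tef, Hlf and Dbp replicate 1 at 10 min was the lowest of the 3 mice, as it was for 8 of the 11 repressors.

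**Figure D2:**
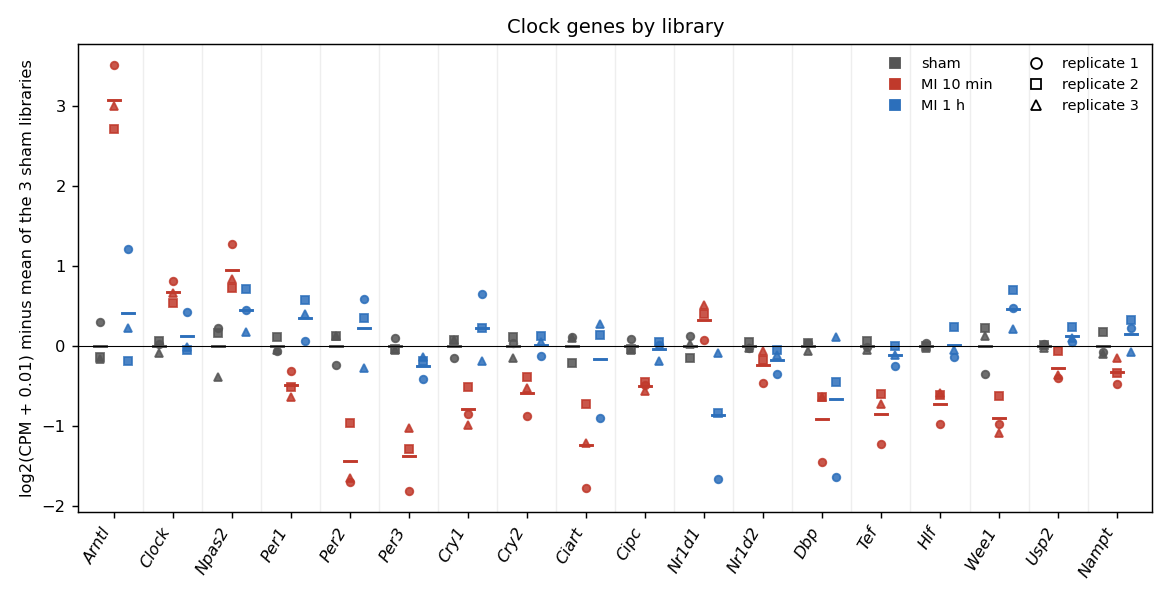
Log2 level of each clock gene in each library relative to the mean of the 3 sham libraries, after adding 0.01 CPM, for sham, 10 min and 1 h mice (n = 3 each; bars are group means, marker shapes are replicates). Arntl, Clock and Npas2 lie above the sham line at 10 min and the Per, Cry, Ciart, Cipc and bZIP genes below it, and the 1 h mice lie nearer to sham for Arntl and Per2.

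At 1 h Arntl and Per2 were back near their sham means. Arntl averaged 1.16 ± 0.22 CPM in sham, 9.94 ± 2.85 at 10 min and 1.67 ± 0.87 at 1 h (SD, n = 3), and Per2 averaged 41.0 ± 5.72, 15.5 ± 4.71 and 49.0 ± 14.0 CPM. The test between 10 min and 1 h called 50 of 16311 genes (0.307%), 41 of them (0.251%) higher and 9 (0.0552%) lower at 1 h. It leaves out the sham mice but uses the same 10 min mice by which the genes above were picked. It is therefore not an independent check of them. Arntl, Per2, Cipc, Cry1 and Wee1 were among the 50. The median log2 fold change against sham at 1 h was -0.04 for the repressors and 0.08 for the output genes. At 72 h, Arntl averaged 22.3 ± 2.1 CPM and Per2 2.24 ± 0.57 CPM.

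Promoter sequence was read for the clock genes called by the 6-library fit, in the 250 bases before each start site in RefSeq (GRCm38.p6). The motifs searched, on both strands, were the E-box CACGTG, the D-box TTANGTAA, the cyclic AMP response element (CRE) TGACGTCA, and the RORE and CArG box by their consensus. Of the 11596 genes tested that had a window, 9.55% held an E-box, 1.63% a D-box, 2.85% a CRE, 0.19% a RORE and 1.43% a CArG box. Of the 8 lower clock genes with a window, 5 (62.5%) held an E-box: Per1, Cry1, Ciart, Cipc and Tef. A D-box lay in Per3 and a CRE in Hlf (12.5% each), and none of the 8 held a RORE or CArG box. Per2 and Wee1 had no window. The windows of Arntl and Clock held none of the motifs. The stretches that follow are shown for 3 lower clock genes with an E-box and for Arntl, which moved the other way. They hold up to 200 bases before the start site that lie outside every GENCODE exon. Capitals mark the E-box, of which Ciart has 3, Cry1 and Tef 1 each and Arntl none. The Tef stretch lies inside the gene, before its second start site. A match is a stretch of letters, not a measured binding site.
Ciart, chr3:95882252-95882451, minus strand: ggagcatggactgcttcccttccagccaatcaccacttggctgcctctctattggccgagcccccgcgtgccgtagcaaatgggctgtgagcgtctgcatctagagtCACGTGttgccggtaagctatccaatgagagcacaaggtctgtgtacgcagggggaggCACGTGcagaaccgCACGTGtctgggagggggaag
Cry1, chr10:85185065-85185264, minus strand: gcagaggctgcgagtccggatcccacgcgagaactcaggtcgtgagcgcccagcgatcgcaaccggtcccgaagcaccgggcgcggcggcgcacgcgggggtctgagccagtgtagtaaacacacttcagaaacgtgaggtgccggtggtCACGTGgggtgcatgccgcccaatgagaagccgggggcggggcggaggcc
Tef, chr15:81811214-81811413, plus strand: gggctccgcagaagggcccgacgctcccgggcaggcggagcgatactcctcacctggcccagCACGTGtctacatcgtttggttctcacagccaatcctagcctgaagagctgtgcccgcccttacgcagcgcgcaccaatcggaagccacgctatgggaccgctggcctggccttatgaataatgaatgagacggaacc
Arntl, chr7:113207265-113207464, plus strand: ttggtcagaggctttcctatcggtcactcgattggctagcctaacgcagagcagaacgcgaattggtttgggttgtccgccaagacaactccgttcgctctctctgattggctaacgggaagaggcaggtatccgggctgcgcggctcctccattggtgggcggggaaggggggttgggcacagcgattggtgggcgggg

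The immediate early genes, a list mainly of transcription factor genes, were mostly higher at 10 min. Of 25 tested, 20 had a positive log2 fold change, with a median of 0.51. None was called in the 18-library fit, while 9 had an unadjusted p under 0.05 upward, beside 3.63% of all genes. In the 6-library fit 10 were higher and 1, Ier3, was lower, beside 1.33% higher and 1.15% lower over all genes. In 12 of the 25 all 10 min libraries lay above all sham libraries, beside 11% of genes tested.

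Fos, a subunit of the AP-1 factor (chr12:85473890-85477273), was at 1.31, 2.18 and 1.64 CPM in sham and 23.9, 10.5 and 13.5 CPM at 10 min. The groups were far apart, with replicate 1 highest. The log2 fold change was 3.21 in the 18-library fit (SE 0.63, edgeR adjusted p = 0.167) and 3.20 in the 6-library fit (SE 0.43, adjusted p = 0.0301). Fosb, another AP-1 subunit gene, was at 0.40, 1.97 and 1.20 CPM in sham and 5.85, 3.82 and 4.41 CPM at 10 min. The zinc finger factor gene Egr1 was at 11.7, 14.6 and 13 CPM in sham and 49.9, 33.6 and 56.4 CPM at 10 min, and it too did not overlap. Its log2 fold change was 1.82 in the 6-library fit, which called it (SE 0.22, edgeR adjusted p = 0.0191), and 1.83 in the 18-library fit, which did not (SE 0.44, adjusted p = 0.294).

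Junb, which pairs with Fos, was at 19.3, 20.5 and 22.3 CPM in sham and 55.9, 36.6 and 43.2 CPM at 10 min. Jun, in contrast to Junb, had a log2 fold change of only 0.41, from 56.1, 61.5 and 68.9 CPM to 75.8, 79.9 and 92.2 CPM. Fosb, Junb and Jun rose in the 6-library fit, as did Csrnp1, Egr2, Fosl2, Ier2 and Klf4, the last 5 by log2 values of 0.58 to 1.54. Atf3, a stress-induced bZIP factor gene, overlapped between groups, at 2.98, 3.06 and 3.42 CPM in sham and 6.29, 4.49 and 2.85 CPM at 10 min. Ier3 had 31.9, 30.2 and 38.2 CPM in sham and 22.0, 22.6 and 22.1 CPM at 10 min, lower than sham in each mouse. In the 6-library fit its log2 fold change was -0.59 (SE 0.09, edgeR adjusted p = 0.00213), and the 18-library fit did not call it.

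At 1 h the same list stood higher still. Its median against sham was 1.5 on the log2 scale, and 16 of 25 were called against sham (beside 0.294% of all genes). In the test of 1 h against 10 min 15 were called, beside 0.307% of all genes. Fos was at 204, 170 and 284 CPM at 1 h, and Atf3 at 70.9, 83.0 and 122 CPM. Fos was 3.79 log2 units higher at 1 h than at 10 min (SE 0.52, edgeR adjusted p = 0.00892). Atf3, which overlapped with sham at 10 min, was 4.34 log2 units higher at 1 h than at 10 min (SE 0.50, edgeR adjusted p = 0.00354). The 1 h mice are other animals, so these are levels at a later time and not a course within a mouse.

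Of 24 genes tested in a list mainly of feedback inhibitors and mRNA decay factors, 19 had a positive log2 fold change, with a median of 0.30. None was called in the 18-library fit, and 5 of the 23 tested in the 6-library fit were higher there (Dusp1, Dusp6, Spry1, Spry4 and Btg2), beside 1.33% of all genes. Dusp1, a phosphatase gene that turns off MAP kinases, was at 64.9, 77.7 and 83.3 CPM in sham and 176, 166 and 158 CPM at 10 min. These 10 min values were close to each other and all above sham, and the log2 fold change was 1.14 in the 6-library fit (SE 0.09, edgeR adjusted p = 5.08e-06) and 1.15 in the 18-library fit (SE 0.24, adjusted p = 0.167). Btg2, which promotes mRNA deadenylation, had 33.5, 32.9 and 33.5 CPM in sham and 60.5, 48.1 and 50.3 CPM at 10 min. Zfp36, whose protein destabilises cytokine mRNAs, stood at 15.8, 20.3 and 16.4 CPM in sham and at 53.4, 32.5 and 32.8 CPM at 10 min, and was called by neither the 18-library nor the 6-library fit. Errfi1, an inhibitor of the EGF receptor, was at 22.6, 23.0 and 20.4 CPM in sham and 81.1, 37.2 and 38.9 CPM at 10 min, with replicate 1 far above its group.

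The calls of the 6-library fit were not equally steady. When each of the 6 libraries was left out in turn, Dusp1, Junb, Ier2, Csrnp1, Fosl2, Btg2, Ier3, Clock, Per1, Cry1 and Hlf were called in 6 of 6 such fits. Ciart, Cry2, Fosb and Klf4 were called in 3 of 6, and Fos, Egr1, Jun, Dusp6, Per3, Tef and Wee1 in 2 of 6. Egr2, Spry1 and Per2 were called in 1 of 6, and Spry4 in 4 of 6.

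A CRE lies in the promoter windows of Dusp1 and Btg2, 2 of 12 genes with a window among the 15 of the early and feedback lists that were higher in the 6-library fit, beside 2.85% of all genes. An E-box lies in 3 of the 12 (25%; Egr2, Klf4 and Dusp1), beside 9.55% of all genes, and a CArG box in Egr2. The 2 stretches are shown for that reason, with the CRE in capitals. Dusp1 also holds an E-box, which is left in lower case here.
Dusp1, chr17:26508520-26508719, minus strand: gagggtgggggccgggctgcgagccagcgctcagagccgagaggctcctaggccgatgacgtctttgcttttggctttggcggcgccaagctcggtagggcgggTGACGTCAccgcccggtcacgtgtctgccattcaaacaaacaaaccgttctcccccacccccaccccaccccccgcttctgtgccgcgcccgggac
Btg2, chr1:134079156-134079355, minus strand: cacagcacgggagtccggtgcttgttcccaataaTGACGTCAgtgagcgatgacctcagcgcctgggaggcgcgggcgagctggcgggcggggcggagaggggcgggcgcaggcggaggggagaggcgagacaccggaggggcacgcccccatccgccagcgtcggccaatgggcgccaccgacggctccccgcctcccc

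**Figure D3:**
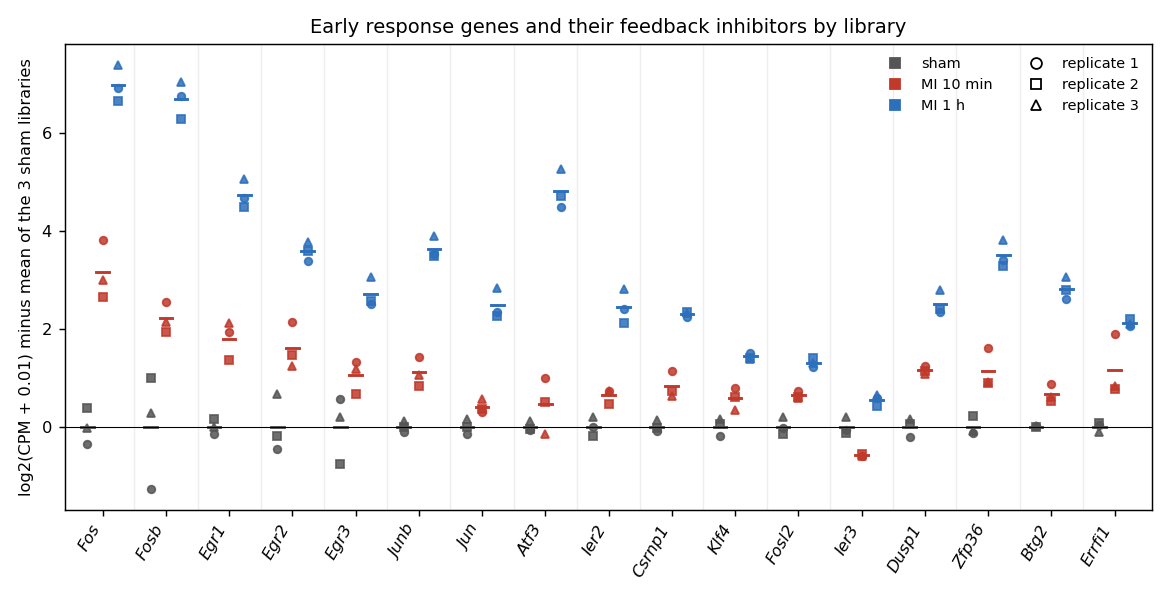
Log2 level of each early response gene in each library relative to the mean of the 3 sham libraries, after adding 0.01 CPM (n = 3 mice per group; bars are group means). The 10 min mice lie above sham for every gene drawn except Ier3, where they lie below it, and Atf3, where they overlap. The 1 h mice lie above the 10 min mice for every gene drawn. Only some of the 25 immediate early genes tested are drawn. Over all 25, the 10 min mice lay above sham without overlap in 12 and below it in 2.

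Neutrophil marker transcripts were higher in sum at 10 min, with no marker called. The sum of the 10 markers was 5.46 to 7.62 CPM in sham, and 27.3, 11.5 and 8.38 CPM in the 10 min mice, highest in replicate 1, where Fos and Errfi1 were also highest, and next highest in replicate 2, where Fos was lowest. Of the 8 markers tested in the 18-library fit, 7 had a positive log2 fold change and none was called. Only 5 had enough counts to enter the 6-library fit, and it called none of them. Of the 10, 3 were at 3 counts or fewer in every one of the 6 libraries, and none was at 0 throughout. Lymphocyte markers summed to 1.96 to 2.88 CPM in sham and 4.55 to 5.31 CPM at 10 min. Their part in the early gene levels was not tested. For cytokines and chemokines the median over 18 genes tested was 0.10 on the log2 scale at 10 min and 2.05 at 1 h; the former ran from 0.01 (without replicate 1 or 3 at 10 min) to 0.46 (at least 10 counts in each library) over the alternatives. Cxcl1, a neutrophil attractant, was the single member called by the 6-library fit (edgeR adjusted p = 0.0415, and 0.876 in the 18-library fit), and in none of the 6 fits that left out 1 of its libraries. It stood at 1.16, 1.45 and 1.33 CPM in sham and 3.86, 2.31 and 2.23 CPM at 10 min. Only 6 of the 18 members had enough counts to enter that fit. The others entered the 18-library fit through their counts in later groups. The medians at 10 min and 1 h therefore rest in part on members near the floor in sham that were let in by being higher later. With a prior count of 2, the list median was 1.45, 0.99 and 1.38 in the 1 h mice.

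Eln, which encodes elastin (chr5:134702593-134747323), was the matrix gene called in the 18-library fit. It stood at 49.0, 58.2 and 55.1 CPM in sham and 91.6, 91.3 and 79.5 CPM at 10 min, without overlap. The log2 fold change was 0.69 (SE 0.12, edgeR adjusted p = 0.0415). In the elastic fibre and matrix list 16 of 19 had a positive log2 fold change (median 0.26), beside 51.4% of all genes tested. Eln, Fbn1, Loxl1, Col1a1 and Col5a1 were higher in the 6-library fit, beside 1.33% of all genes. When each of the 6 libraries was left out of that fit in turn, Eln and Fbn1 were called in 6 of 6 fits, Col1a1 in 3, and Loxl1 and Col5a1 in 2. Fbn1, which encodes fibrillin, was at 58.6, 46.4 and 58.1 CPM in sham and 107, 87.2 and 103 CPM at 10 min. At 1 h the list had a median of 0.01, and Eln averaged 61.8 CPM. Col5a3 and Spon2, also of the matrix, rose in the 6-library fit by log2 values of 1.16 and 1.62.

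Fibroblast markers, which share members with the matrix list, were higher in sum at 10 min. Their sum was 679 to 723 CPM in sham and 752 to 854 CPM at 10 min, without overlap. All 6 had a positive log2 fold change, and the 1 called, by the 6-library fit, was Col1a1, which is also in the matrix list, as is Col1a2. Smooth muscle and pericyte markers summed to 1377 to 1407 CPM in sham and 1438 to 1518 CPM at 10 min, but 4 of 8 had a positive log2 fold change, with a median of 0.01 and none called. Epicardial markers summed to 10.9 to 18.9 CPM and 6.65 to 11.8 CPM. No fibroblast or smooth muscle marker was at 0 counts. Their part in the matrix gene levels was not tested.

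**Figure D4:**
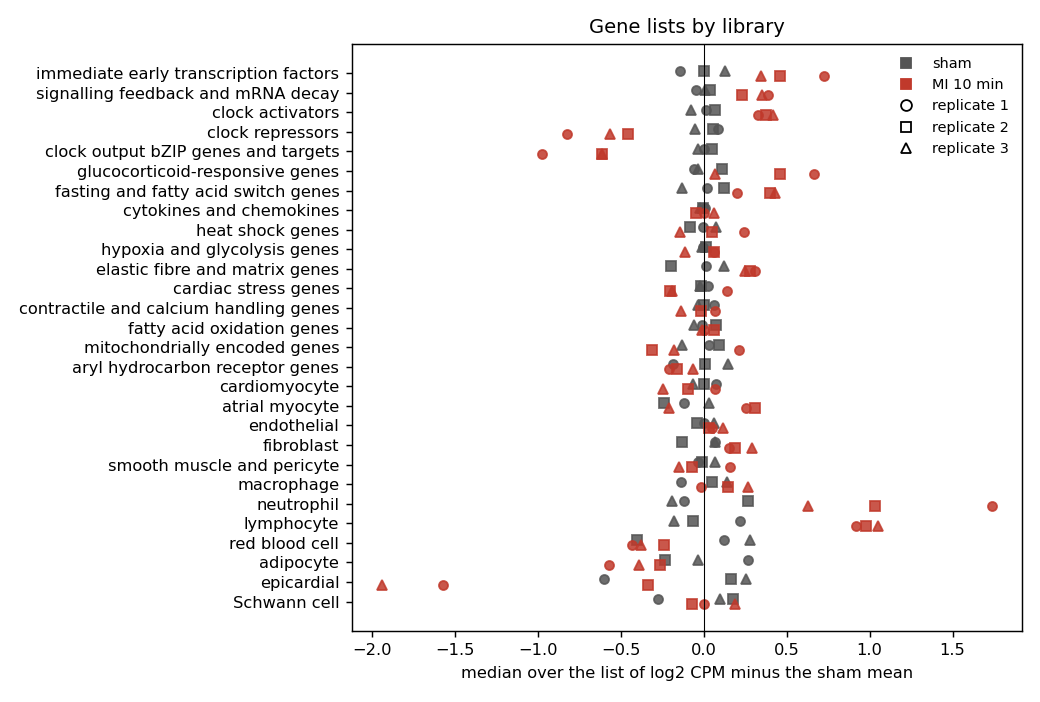
Median over each gene or marker list of log2 level relative to the sham mean, for each of the 6 libraries (marker shapes are replicates). The 3 mice at 10 min lie to the right of sham for the early, feedback, clock activator and matrix lists and to the left of it for the clock repressor and output lists.

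Among the other genes called in the 18-library fit, Slc41a3, of a magnesium transporter family (chr6:90604725-90646412), stood at 22.8, 14.5 and 15.7 CPM in sham and 74.9, 46.3 and 59.8 CPM at 10 min. The log2 fold change was 1.77 (SE 0.24, edgeR adjusted p = 0.0124), though the 6-library fit put it at an adjusted p of 0.0544. At 1 h it averaged 20.5 CPM, near the sham mean of 17.7 CPM. Leo1, a subunit of the PAF1 complex, rose from 10.8, 9.75 and 9.82 CPM to 21, 17.2 and 15.4 CPM, and Galnt18, of a glycosyltransferase family, from 19.6, 13.4 and 15.9 CPM to 29.0, 29.3 and 28.5 CPM.

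Mid1ip1, which promotes fatty acid synthesis (chrX:10715013-10719690), fell from 193, 193 and 188 CPM to 97.1, 139 and 105 CPM, with a log2 fold change of -0.75 (SE 0.13, edgeR adjusted p = 0.0415). The sham values lay close together, and each 10 min mouse was below each of them. Zfp445, a zinc finger gene with a part in genomic imprinting (chr9:122844529-122866006), had 96.1, 80.6 and 91.1 CPM in sham and 53.1, 54.9 and 61.7 CPM at 10 min. Its log2 fold change was -0.66 (SE 0.10, edgeR adjusted p = 0.0124). Lonrf1 went from 16.9, 19.5 and 15.8 CPM to 4.98, 10.7 and 8.54 CPM, with a log2 fold change of -1.09. Maco1 and Ptprn had log2 fold changes of -0.56 and -0.67 and no overlap between groups. Of the 12 genes, 11 had a 1 h mean nearer to the sham mean than to the 10 min mean, and Ptprn was the exception. The 12 were picked by these same 10 min and sham mice, so this count is not independent of that choice.

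A gene whose span overlaps another counted gene can share reads with it when strand is not used, and strand use is not given in the sources used here. Cell type markers aside, this holds for 33 of the 71 genes named in the text, among them 5 of the 12 called ones: Arntl, Zfp445, Eln, Mid1ip1 and Ptprn. It also holds for Dusp1, Junb, Per3, Ciart, Wee1 and Cry2.

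Genes of the switch to fatty acid use, known to rise with fasting and with catecholamines, differed widely between the 10 min mice. Of 10 tested, 9 had a positive log2 fold change (median 0.34) and none was called by either fit. Pdk4, which blocks pyruvate oxidation, stood at 167, 133 and 106 CPM in sham and at 204, 535 and 767 CPM at 10 min. Ucp3, a mitochondrial carrier, had 18.8, 19.2 and 17.7 CPM in sham and 26.3, 79.0 and 148 CPM at 10 min. Angptl4, an inhibitor of lipoprotein lipase, had 1.06, 1.56 and 1.78 CPM and 2.62, 13.6 and 34.3 CPM. In all 3 of these genes replicate 1 lay nearest to sham and replicate 3 highest, with log2 fold changes of 1.89, 2.18 and 3.51, and with edgeR adjusted p of 0.346, 0.215 and 0.499. Replicate 3 was the highest of the 10 min mice in 7 of the 10 genes, beside 31.8% of all genes tested, and replicate 1 the lowest in 7, beside 34.7%.

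Replicate 1 was the highest of the 10 min mice in many other lists. This held for 16 of 25 immediate early genes, 14 of 24 feedback genes and 8 of 12 glucocorticoid-responsive genes, beside 37.0% of all genes tested. It held also for 10 of 14 heat shock genes, 9 of 13 cardiac stress genes, 10 of 19 matrix genes and 12 of 13 mitochondrially encoded genes. Ties between mice, for highest or lowest, were counted for replicate 1. The count for cytokines, 13 of 18, is therefore not comparable, as only 6 of the 18 had enough counts to enter the 6-library fit. Ddit4, which inhibits mTORC1, stood at 289, 170 and 93.1 CPM at 10 min and at 89.2, 123 and 94.9 CPM in sham, and so overlapped. Sgk1, a kinase gene induced by glucocorticoids, was at 67.7, 66.4 and 67.3 CPM in sham and 150, 101 and 95.1 CPM at 10 min, with a log2 fold change of 0.78 (SE 0.15, edgeR adjusted p = 0.067 in the 18-library fit and 0.107 in the 6-library fit). The glucocorticoid-responsive list, which shares Pdk4 and Angptl4 with the fasting list and Errfi1 with the feedback list, had 11 of 12 positive log2 fold changes (median 0.34) and no member called.

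**Figure D5:**
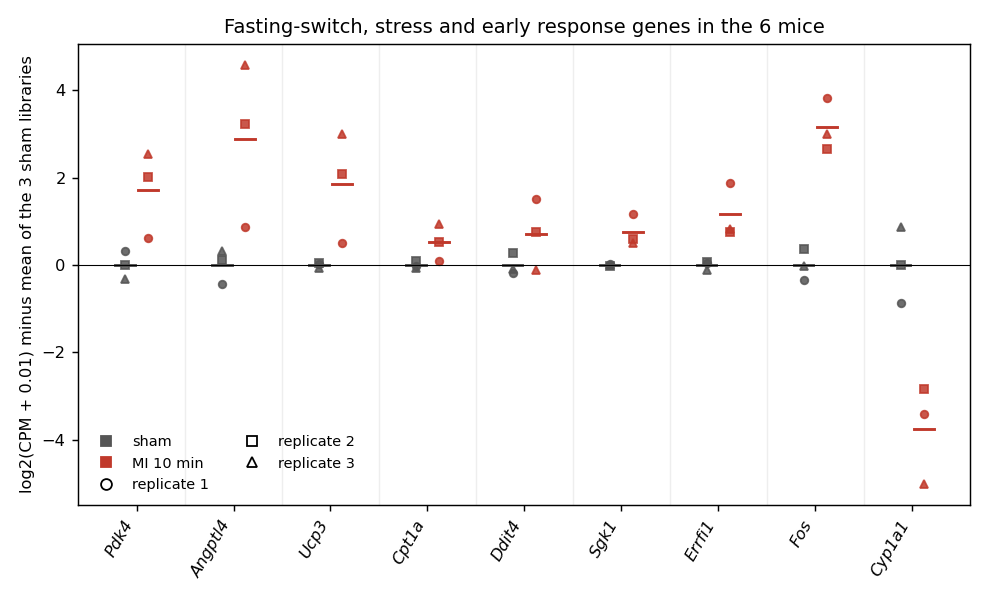
Log2 level in each library relative to the mean of the 3 sham libraries, after adding 0.01 CPM, for genes of fuel use, stress and early response (n = 3 mice per group; bars are group means). Replicate 3 at 10 min is highest for Pdk4, Angptl4, Ucp3 and Cpt1a, and replicate 1 is highest for Ddit4, Sgk1, Errfi1 and Fos.

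Contractile and calcium handling genes as a list had a median of -0.03 on the log2 scale, beside 0.01 over all genes. Yet 2 of the 15 members rose in the 6-library fit, beside 1.33% of all genes. Slc8a1, the sodium-calcium exchanger gene, stood at 88.5, 96.6 and 92.9 CPM in sham and 143, 159 and 137 CPM at 10 min. Ryr2, the calcium release channel gene, stood at 898, 948 and 985 CPM and 1201, 1376 and 1231 CPM. Both were without overlap between groups, with log2 fold changes of 0.66 and 0.43, and neither passed in the 18-library fit (edgeR adjusted p = 0.477 and 0.604). Of the cardiac stress genes Myh7, the slow myosin heavy chain gene, and Xirp2 were lower in the 6-library fit, beside 1.15% of all genes. Their log2 fold changes there were -0.58 and -0.32, with no overlap. Slc8a1 and Myh7 were called in 6 of 6 fits that left out 1 of the 6 libraries, Ryr2 in 5 and Xirp2 in 2, as were Hspb7 and Pfkfb3, described next.

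Genes of oxygen lack and of heat shock gave no shared direction at 10 min. The median for the hypoxia and glycolysis list was 0.02 (16 tested). Pfkfb3 was lower in the 6-library fit, 1 of 15 tested there, beside 1.15% of all genes. Ddit4, another member, had a log2 fold change of 0.85 with overlap between groups (edgeR adjusted p = 0.641 in the 18-library fit). The heat shock list had a median of 0.08 (14 tested), with Hspb7 lower in the 6-library fit, 1 of 14, beside the same 1.15%. Vegfa, an oxygen-regulated growth factor gene, stood at 302, 253 and 289 CPM in sham and 279, 216 and 221 CPM at 10 min, with overlap. The fatty acid oxidation list had a median of 0.00 and the mitochondrially encoded list one of -0.15. The 10 min mice did not share a direction in the latter, with list medians of 0.21, -0.31 and -0.18 in replicates 1 to 3. Over the alternatives its median ran from -0.27 to -0.01. No gene of these 4 lists was called in the 18-library fit.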

How the data were processed

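The authors' deposited gene counts and FPKM values were used. Per the submitters' processing notes, the tools included cutadapt 1.18, HISAT2 2.1.0 and featureCounts with build mm10. Strand use and annotation are not given in the sources used here. Per the labels' protocols, libraries were poly(A)-selected. The series' count table and the per-sample tables hold the same values (0 differ). The deposited FPKM values are proportional to counts in 100% of the 10452 genes whose count reached 50 in every library, within 0.1%. Depth ranges are in the report, and counts carry no molecular identifiers.

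Symbols and coordinates are from GENCODE M21, matched by gene ID (30512 matched, 71 did not). Counts were fitted in R 4.3.3 with edgeR 4.0.16 (filterByExpr, TMM, glmQLFit robust, glmQLFTest, 1 mean per group, all 18 libraries; 14272 of 30583 genes removed). P-values are two-sided, adjusted by Benjamini-Hochberg over 16311 genes, with a threshold of 0.05; SE were taken from the F statistic. The procedure was also tested on simulated data. DESeq2 1.42.0 and limma 3.58.1 on log2(FPKM + 1) and log2(FPKM + 0.1) were alternatives. List medians by library used log2 CPM with a prior count of 2. An exact two-sided permutation of 3 against 3 cannot give p below 0.1.

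Named genes were those called; the 10 largest increases and decreases called by the 6-library fit with at least 50 counts on average; every gene of the early and clock lists; and up to 4 per other list. Some other members are named to say which ones a count holds. Some genes that this rule takes in are not reported here. The lists and members were chosen with earlier results of these data known. Replicate numbers did not pair the mice (correlations of deviations 0.05, 0.06 and -0.04 between equal numbers). Promoters came from RefSeq (GRCm38.p6).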

Additional observations from a re-analysis of the deposited data

Results flagged for a closer look

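Several named genes differed between 10 min and 1 h, by the edgeR test between the 2 groups (adjusted p from 0.00122 to 0.0216). They are listed because their levels at the 2 times differed, and the part that ligation had in this was not tested. Values are log2 fold changes of 1 h over 10 min. Arntl had -2.53 and Slc41a3 -1.56, both high at 10 min. Genes low at 10 min had 1.65 (Per2), 1.35 (Wee1), 1.09 (Lonrf1), 1.03 (Cry1), 0.82 (Mid1ip1), 0.58 (Zfp445) and 0.46 (Cipc). Among AP-1, Egr and related genes the values were 4.51 for Fosb, 4.34 for Atf3, 3.79 for Fos, 2.93 for Egr1, 2.53 for Junb, 2.09 for Jun, 1.95 for Egr2, 1.84 for Ier2, 1.66 for Egr3, 1.47 for Csrnp1 and 0.84 for Klf4. Among genes that follow them, Zfp36 had 2.34, Btg2 2.16, Apold1 2.16 and Dusp1 1.37. In all of these genes but Arntl and Slc41a3 the 1 h mean was the higher one.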

How the results depend on the processing

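No named gene reversed in any alternative, and the medians of the clock, early, feedback, matrix, glucocorticoid and fasting lists kept their sign under 9 alternatives. Those medians ran from 0.33 to 0.40 for clock activators, from -0.53 to -0.47 for repressors, from -0.86 to -0.62 for output genes and from 0.35 to 0.64 for immediate early genes. The cytokine median ran from 0.01 to 0.46 and the aryl hydrocarbon receptor one from -0.21 to -0.10. The medians of the cardiac stress, contractile, fatty acid oxidation and heat shock lists, all close to 0, did change sign. Counts depended on the libraries in the fit. For 10 min against sham, 12 genes became 360 with the 6 libraries alone, 251 with the 9 libraries of sham, 10 min and 1 h, 26 with no filter, 60 with DESeq2 on 18 libraries, 433 with DESeq2 on 6, 2 with limma on log2(FPKM + 1) and 4 with log2(FPKM + 0.1). All 12 were among the 60. With a replicate block the counts were 14 (18 libraries) and 569 (6 libraries); not every mouse correlated best with its own number. Leaving out 1 library gave 0 to 5 calls in the 18-library fit: 0 without sham replicate 3 or 10 min replicate 1, 1 without sham replicate 1 or 2, 2 without 10 min replicate 3 and 5 without 10 min replicate 2. Within the 6 libraries the counts were 124, 174 and 176 without sham replicates 1, 2 and 3, and 700, 187 and 268 without 10 min replicates 1, 2 and 3.

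For 1 h against 10 min, 50 genes became 244 with the 2 groups alone, 320 with the 9 libraries, 320 with a replicate block on the 2 groups, 133 with DESeq2 on 18 libraries and 339 with DESeq2 on the 2 groups. Leaving out 1 library of the 18 gave 6 to 40: 6 without 10 min replicate 3, 17 without 10 min replicate 2, 29 without 1 h replicate 1 and 28 without 1 h replicate 2. With the 2 groups alone the counts were 246, 160 and 95 without 10 min replicates 1, 2 and 3, and 155, 130 and 389 without 1 h replicates 1, 2 and 3. The cause was not tested. Arntl was called in 2 of the 6 fits of the 18 libraries that left out 1 of these mice, and Per2 in 1 of 6.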

Other observations

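Cyp1a1, a cytochrome P450 gene induced through the aryl hydrocarbon receptor, varied widely between mice. It stood at 139, 253 and 468 CPM in sham and at 24.0, 35.9 and 7.93 CPM at 10 min, without overlap, with a log2 fold change of -3.65 (SE 0.75, edgeR adjusted p = 0.188 in the 18-library fit and 0.142 in the 6-library fit). At 1 h the 3 mice were at 297, 105 and 145 CPM. The receptor's list had 1 positive log2 fold change among 7 tested and no call.

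Mthfd1l, of mitochondrial folate metabolism, was at 3.19, 4.05 and 3.64 CPM in sham and 1.12, 1.81 and 1.17 CPM at 10 min, and was called by the 6-library fit (edgeR adjusted p = 0.00437) and not by the 18-library fit (adjusted p = 0.209). Hipk2, a kinase gene, rose in the 6-library fit, from 27.6, 38.1 and 33.5 CPM to 60.5, 78.1 and 63.8 CPM, and stood at 66.8, 63.0 and 43.1 CPM at 1 h.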
